A study of Homo sapiens with 12 samples.

Results

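Mesenchymal state genes of neuroblastoma were followed in SH-SY5Y cells that met hydrogen peroxide (H2O2) before or during retinoic acid differentiation. The set held 10 genes, VIM, GJA1, PHLDB2, PRRX1, SNAI2, ZEB1, ZEB2, YAP1, WWTR1 and CD44, of 55765 gene symbols counted. VIM, GJA1 and PHLDB2 (3 of the 10) were picked because they were higher after peroxide pre-treatment in these same libraries, so their pre-treatment values are a description with no test. The other 7 were taken as known mesenchymal neuroblastoma genes. In the co-treatment experiment, whose values did not enter the choice, VIM was 2.23-fold higher with H2O2 and passed the test, PHLDB2 was 1.53-fold higher and did not pass, and GJA1 was at 0.919 of its control level. In the pre-treatment experiment, VIM, GJA1 and PHLDB2 stood at 5.36-fold, 6.05-fold and 4.12-fold of control. Of the known genes, YAP1 was at 8.72-fold, though tested only through its treated libraries, and CD44 was at 2.37-fold. The estimates of SNAI2, ZEB1, ZEB2 and WWTR1 were 0.994-fold to 1.14-fold. None of these 6 known genes passed the test over all 6 libraries, where 0.0242% of all genes tested passed. When control replicate 3 was left out YAP1 and CD44 passed, where 11.2% of all genes passed and 2.98% passed as higher.

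Neuroblastoma cells can take an adrenergic, neuroblast-like state or a mesenchymal state, and cells of some lines pass between them. The mesenchymal state is known for vimentin filaments, for transcription factors such as PRRX1, SNAI2, ZEB1 and ZEB2, and for activity of YAP and TAZ, the co-activators that the Hippo kinase pathway keeps out of the nucleus. Vimentin (VIM) is the main intermediate filament of mesenchymal cells, connexin 43 (GJA1) forms gap junction channels, and PHLDB2 (LL5-beta) anchors microtubule ends to the cell cortex near focal adhesions. CD44 is the surface receptor for hyaluronan.

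SH-SY5Y is a human neuroblastoma line, a subclone of the bone marrow-derived SK-N-SH line, and all-trans retinoic acid (ATRA) makes its cells extend neurites. The sample labels give SK-N-SH as the source name but SH-SY5Y as the cell line. The cells are taken here as SH-SY5Y, the line named in the study, and this was not tested. Every one of the 12 libraries came from cells given ATRA for 7 days. The co-treatment group received H2O2 and ATRA together for those 7 days, the pre-treatment group received H2O2 for 72 h before ATRA began, and each experiment had its own controls without H2O2, with 3 libraries in each of the 4 groups. For H2O2 the labels state 10 mM and the study's methods 10 μM, the dose also stated for ATRA. The labels do not say that the replicates came from separate cultures, so the p-values measure the spread between these samples, which may be technical.

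The co-treatment libraries held 27576276 to 63182696 reads on genes, and the pre-treatment libraries 41780221 to 98287391. Levels are given in CPM, counts scaled to library size with edgeR's TMM factors over the 12 libraries, where 3 counts, the limit that a count of 0 allows for counting error alone, equal 0.0311 to 0.107 CPM. Differences are log2 fold changes of treated against control libraries (log2FC), and the FDR is the p-value after adjustment over all genes tested. Control replicate 3 of the pre-treatment experiment stood apart from control replicates 1 and 2 of that experiment. Small structured RNAs took 17.6% of its counts, against 1.59% and 2.88% in control replicates 1 and 2 and 13.3% to 15.1% in the treated libraries. Its reads outside annotated features were 0.20 per counted read, against 0.80 and 0.83 in the other controls and 0.343 to 0.462 in the treated libraries. The pre-treatment values of the members are therefore given with and without control replicate 3, in which VIM, GJA1 and PHLDB2 lay near control replicates 1 and 2.

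The neuroblastoma label was checked against marker genes. The 9 neuroblast markers summed to 2751 to 4034 CPM over the 12 libraries, although TH, the rate-limiting enzyme of catecholamine synthesis, reached no more than 0.263 CPM in any. Schwann cell markers summed to 6.28 to 8.88 CPM with FOXD3 at 0, and immune and endothelial markers to 0.438 to 1.66 and 1.05 to 2.03 CPM. Fibroblast markers, which mesenchymal neuroblastoma cells also carry, summed to 202 to 239 CPM in the pre-treatment controls and 219.7 to 276 after peroxide, and to 174 to 252 and 169 to 195 CPM in the co-treatment controls and treated libraries. In RNA from whole cultures, a larger share of mesenchymal cells and more of these transcripts per cell cannot be told apart.

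The 3 genes that were higher after pre-treatment shared none of the 4 motifs searched before their starts. RefSeq start sites were at hand for 9 of the 10 genes on GRCh38.p14, and the 250 bases before the start were searched on both strands. The motifs were GGAATG (the core bound by TEAD, the partners of YAP and TAZ, in 11.9% of 35116 such windows of all genes), CACCTG (the E-box bound by SNAI and ZEB proteins, 17.5%), TGANTCA (AP-1, 6.57%) and TGACNNNGC (the antioxidant response core bound by NRF2, 10.9%). The AP-1 and antioxidant letters share their first bases, but no matches overlapped in the windows shown. The windows of VIM, GJA1 and PHLDB2 are printed because these genes were picked on the pre-treatment difference, 5′ to 3′ on the plus strand, with matched motifs in capitals.
VIM, chr10:17227991-17228240: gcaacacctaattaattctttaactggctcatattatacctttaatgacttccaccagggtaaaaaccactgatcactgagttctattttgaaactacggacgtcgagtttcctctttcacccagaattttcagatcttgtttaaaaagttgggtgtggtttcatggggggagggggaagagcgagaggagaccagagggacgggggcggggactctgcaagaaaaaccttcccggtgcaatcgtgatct
GJA1, chr6:121435396-121435645: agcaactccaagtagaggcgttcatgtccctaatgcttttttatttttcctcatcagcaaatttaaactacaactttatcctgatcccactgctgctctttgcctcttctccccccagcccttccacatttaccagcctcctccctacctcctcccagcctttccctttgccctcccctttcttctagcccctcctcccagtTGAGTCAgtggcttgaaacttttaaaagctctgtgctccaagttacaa
PHLDB2, chr3:111859015-111859264: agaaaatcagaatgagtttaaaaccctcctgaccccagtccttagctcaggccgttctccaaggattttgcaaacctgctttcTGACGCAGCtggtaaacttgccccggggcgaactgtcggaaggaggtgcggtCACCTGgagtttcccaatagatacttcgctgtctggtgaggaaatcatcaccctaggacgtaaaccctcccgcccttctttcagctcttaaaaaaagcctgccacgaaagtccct
The window of VIM held none of the 4 motifs. GJA1 had an AP-1 match that begins 48 bases before the start, and the printed window of PHLDB2 had an antioxidant core 167 and an E-box 115 bases before it. PHLDB2 has 4 start sites in RefSeq, 2 of whose windows held none of the motifs, and counts per gene do not tell which was used. Of the other genes with a window, YAP1 had a TEAD match 162 bases before its start, CD44 an antioxidant core at 111 bases, and ZEB1 an E-box before 2 of its 7 starts. A match is only a run of letters, and binding was not measured.

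VIM lies at chr10:17270240-17279592 on the plus strand of hg19. Its level was 9.85, 5.76 and 6.20 CPM in co-treatment control replicates 1 to 3 and 15.5, 15.3 and 17.8 CPM in the treated replicates. In the pre-treatment experiment it was 3.07, 4.05 and 5.0 CPM in the controls and 22.8, 19.4 and 21.7 CPM after H2O2. The treated libraries lay above all controls in both experiments, and the 4 groups did not overlap in the order pre-treated (21.3 ± 1.73 CPM, SD, n = 3), co-treated (16.2 ± 1.39), co-treatment control (7.27 ± 2.24) and pre-treatment control (4.04 ± 0.966).

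With co-treatment, VIM rose by a log2FC of 1.16 (SE 0.21, 95% interval 0.71 to 1.61, edgeR quasi-likelihood test with Benjamini-Hochberg adjustment, FDR = 0.0272). It was the only 1 of 9 members tested that passed FDR 0.05 with an absolute log2FC above 0.6, where 0.598% of the 22089 genes tested passed and 0.335% passed as higher. VIM, PHLDB2 and CD44, 3 of the 9, had an unadjusted p under 0.05, against 8.15% of all genes. The call was lost when any library other than control replicate 1 was left out, with edgeR FDR values of 0.0664 to 0.205 and log2FC of 1.01 to 1.19, and without control replicate 1 the log2FC was 1.44 at FDR = 0.000459. After pre-treatment the log2FC of VIM was 2.42 (SE 0.24) over 6 libraries and 2.66 (SE 0.20) without control replicate 3. The mean of the treated libraries was 4.26-fold the level in control replicate 3 alone, 6.95-fold that in control replicate 1 and 5.26-fold that in control replicate 2.

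GJA1, at chr6:121756741-121770873 on the plus strand, was low and level in 3 of the 4 groups. Its counts were 25, 31 and 20 in the co-treatment controls, 12, 35 and 31 in the co-treated libraries, 28, 29 and 29 in the pre-treatment controls and 330, 169 and 277 after pre-treatment. In CPM these were 0.510, 0.661 and 0.584 against 0.426, 0.562 and 0.603 for co-treatment, and 0.508, 0.635 and 0.442 against 3.42, 2.48 and 3.47 for pre-treatment. The pre-treated group (3.12 ± 0.555 CPM, SD, n = 3) stood apart, while the other 3 groups overlapped with means of 0.528 to 0.585 CPM.

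The co-treatment log2FC of GJA1 was -0.12 (SE 0.41, 95% interval -1.01 to 0.77, edgeR FDR = 0.976), so changes within those bounds were not excluded. The pre-treatment log2FC was 2.60 (SE 0.32), and 2.52 (SE 0.31) without control replicate 3. Control replicate 3 had the lowest GJA1 level of the controls, and the treated mean was 7.07-fold above it.

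PHLDB2 (chr3:111451344-111695364, plus strand) was 9.15, 7.46 and 9.97 CPM in the co-treatment controls and 10.3, 15.3 and 14.9 CPM in the co-treated libraries. It was 4.48, 3.35 and 4.51 CPM in the pre-treatment controls and 20.5, 16.6 and 12.8 CPM after pre-treatment. The groups did not overlap within either experiment, although treated replicate 1 of the co-treatment stood only slightly above its highest control. The pre-treated (16.6 ± 3.84 CPM, SD, n = 3) and co-treated (13.5 ± 2.78) groups overlapped each other, and both lay above the co-treatment (8.86 ± 1.28) and pre-treatment (4.11 ± 0.661) controls.

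The co-treatment log2FC of PHLDB2 was 0.62 (SE 0.19, 95% interval 0.20 to 1.03, edgeR FDR = 0.299, unadjusted p = 0.00707), which did not pass. Its pre-treatment log2FC was 2.04 (SE 0.25), and 2.16 (SE 0.25) without control replicate 3, against which alone the treated mean was 3.69-fold. VIM and PHLDB2 were the 2 of 10 members whose co-treated libraries all lay above the controls, an arrangement found in 6.58% of the 22089 genes tested.

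**Figure D1:**
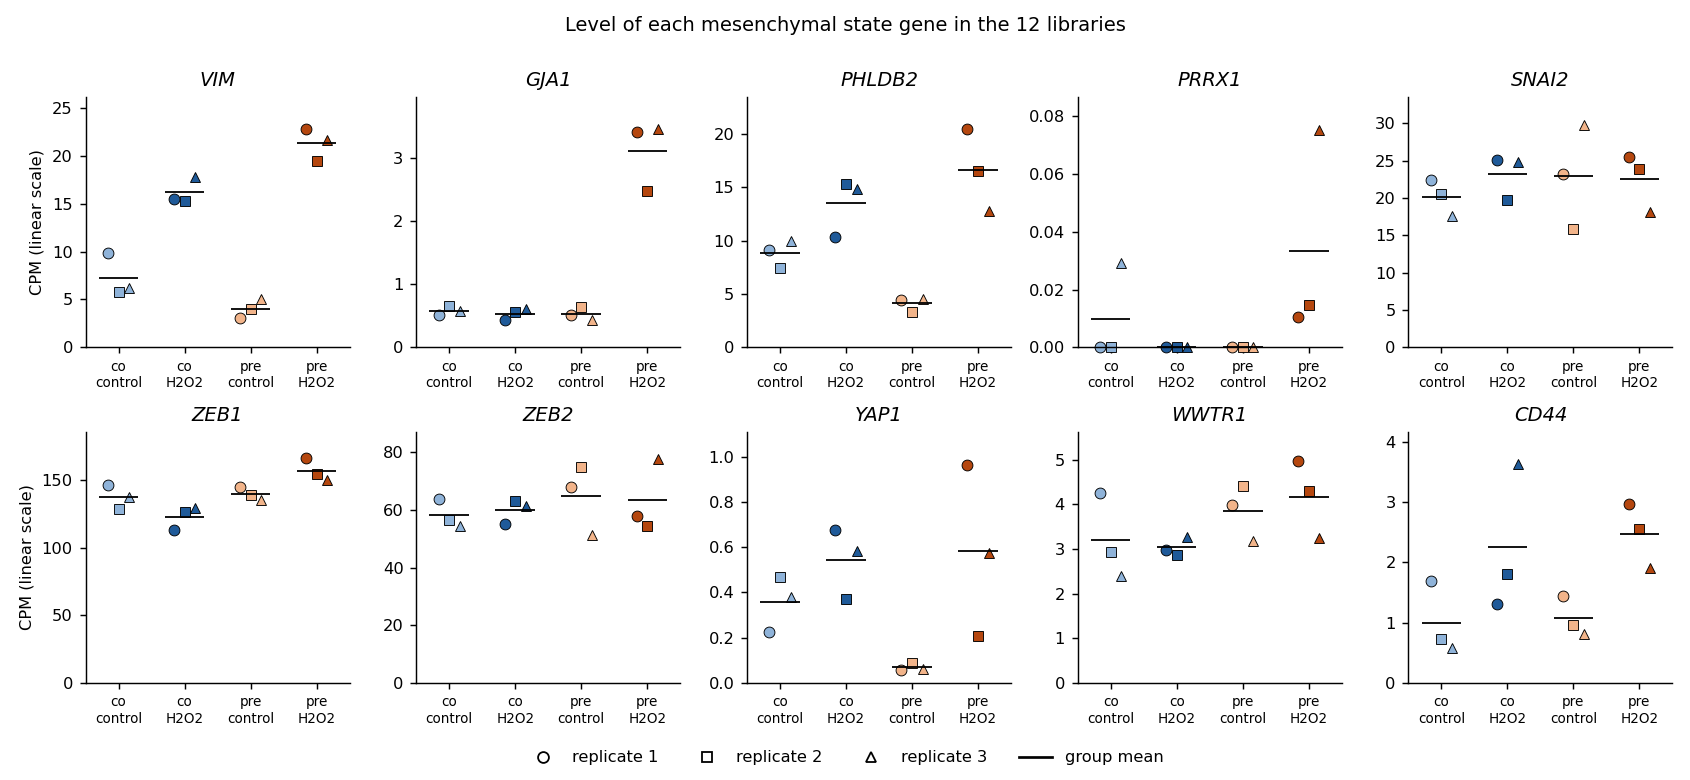
Levels of the 10 genes in CPM (vertical axis, linear, from 0) in each library of the co-treatment (co) and pre-treatment (pre) experiments, with marker shapes for replicate numbers and bars for group means. VIM is at 3.07 to 5.0 CPM in the pre-treatment controls and 19.4 to 22.8 CPM after H2O2, GJA1 is high in the pre-treated group alone (2.48 to 3.47 CPM), and the ranges of SNAI2 and ZEB2 overlap in every group.

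ZEB1 (chr10:31607424-31818742), a transcription factor that represses epithelial genes, was 146, 129 and 138 CPM in the co-treatment controls, 113, 126 and 129 CPM in the co-treated libraries, 145, 139 and 135 CPM in the pre-treatment controls and 166, 154 and 149.8 CPM after pre-treatment. The pre-treated libraries lay above all pre-treatment controls by a small margin, with a log2FC of 0.19 (SE 0.15, 95% interval -0.15 to 0.54, edgeR FDR = 0.650), and of 0.22 (edgeR FDR = 0.177) without control replicate 3. The co-treatment log2FC was -0.16 (95% interval -0.42 to 0.10, edgeR FDR = 0.833).

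ZEB2 (chr2:145121931-145278624, minus strand), the related repressor, ranged from 51.4 to 77.8 CPM over the 12 libraries. Its values were 63.7, 56.6 and 54.2 CPM in the co-treatment controls and 55.1, 63.0 and 61.4 CPM in the co-treated libraries. They were 68.1, 74.9 and 51.4 CPM in the pre-treatment controls and 57.9, 54.4 and 77.8 CPM after pre-treatment. All groups overlapped, and the log2FC was 0.04 (95% interval -0.22 to 0.31, edgeR FDR = 0.972) with co-treatment and 0.00013 (95% interval -0.47 to 0.47, edgeR FDR = 1.00) with pre-treatment, or -0.10 (edgeR FDR = 0.673) without control replicate 3.

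SNAI2 (Slug, chr8:49830157-49834299, minus strand), a neural crest repressor of E-cadherin, was 22.4, 20.5 and 17.6 CPM in the co-treatment controls and 25.1, 19.8 and 24.8 CPM in the co-treated libraries. It was 23.3, 15.9 and 29.8 CPM in the pre-treatment controls, the widest spread of any group for this gene, and 25.5, 23.8 and 18.2 CPM after pre-treatment. The log2FC was 0.20 (95% interval -0.12 to 0.53, edgeR FDR = 0.817) with co-treatment. With pre-treatment it was -0.01 (95% interval -0.61 to 0.60, edgeR FDR = 0.993), and 0.27 (edgeR FDR = 0.370) without control replicate 3.

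PRRX1, a homeobox factor of mesenchymal neuroblastoma (chr1:170631869-170708562), was close to absent. It had 0, 0 and 1 counts in the co-treatment controls, 0 in every co-treated library and pre-treatment control, and 1, 1 and 6 counts after pre-treatment. It did not pass the filter on low counts in any comparison, and the pre-treated counts, 6 at most, were too few for a fold.

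YAP1, the Hippo pathway co-activator (chr11:101981178-102104155), was rare in every library. Its counts were 11, 22 and 13 in the co-treatment controls and 19, 23 and 30 in the co-treated libraries, and 3, 4 and 4 in the pre-treatment controls against 93, 14 and 46 after pre-treatment. In CPM the pre-treatment controls were at 0.0544, 0.0876 and 0.0609 and the treated libraries at 0.963, 0.206 and 0.576, so the groups did not overlap but the treated replicates differed widely. The co-treatment controls (0.224, 0.469 and 0.380 CPM) lay above the pre-treatment controls and overlapped the co-treated libraries (0.675, 0.369 and 0.583 CPM).

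The pre-treatment log2FC of YAP1 was 3.12 (SE 0.71, 95% interval 1.49 to 4.76) over 6 libraries and did not pass (edgeR FDR = 0.320, unadjusted p = 0.00216). It was 3.11 (SE 0.81) without control replicate 3 and passed (edgeR FDR = 0.0251), where 2.98% of all genes passed as higher. All pre-treatment controls lay under the count filter of 0.120 CPM, so YAP1 was tested only because of the group in which it was high. Summed over the libraries, 153 treated and 11 control counts gave a ratio of 9.47, with a 95% exact interval of 5.14 to 19.4 that covers counting error only. The co-treatment log2FC was 0.58 (95% interval -0.50 to 1.67, edgeR FDR = 0.849), and 0.33 without control replicate 1.

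WWTR1 encodes TAZ, the paralog of YAP (chr3:149235022-149454501, minus strand). It was 4.26, 2.92 and 2.40 CPM in the co-treatment controls, 2.98, 2.87 and 3.27 CPM in the co-treated libraries, 3.99, 4.40 and 3.17 CPM in the pre-treatment controls and 4.98, 4.30 and 3.24 CPM after pre-treatment. Treated and control libraries overlapped in both experiments. The log2FC was -0.07 (95% interval -0.62 to 0.48, edgeR FDR = 0.978) with co-treatment, 0.15 (95% interval -0.45 to 0.75, edgeR FDR = 0.841) with pre-treatment and 0.07 (edgeR FDR = 0.864) without control replicate 3.

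CD44 (chr11:35160429-35253949) was 1.69, 0.725 and 0.584 CPM in the co-treatment controls and 1.31, 1.80 and 3.63 CPM in the co-treated libraries. In the pre-treatment experiment it was 1.43, 0.964 and 0.807 CPM in the controls and 2.97, 2.56 and 1.90 CPM after H2O2. Treated and control libraries overlapped with co-treatment but not with pre-treatment. The log2FC was 1.16 (SE 0.46, 95% interval 0.17 to 2.16, edgeR FDR = 0.491) with co-treatment and 1.25 (SE 0.34, 95% interval 0.47 to 2.03, edgeR FDR = 0.320) with pre-treatment, and neither passed. The co-treatment value was 0.64 without treated replicate 3 and 1.79 without control replicate 1. Leaving out control replicate 3, the pre-treatment log2FC was 1.11 and passed (edgeR FDR = 0.0331), where 2.98% of all genes passed as higher.

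Of the 6 known mesenchymal genes that passed the count filter, 0 passed the edgeR test over the 6 pre-treatment libraries, where 0.0242% of the 24743 genes tested passed FDR 0.05 with an absolute log2FC above 1. YAP1 and CD44, 2 of the 6, had an unadjusted p under 0.05, against 11.2% of all genes. By other tools over the same libraries, edgeR's exact test called 1 of them (YAP1), DESeq2 called 2 (YAP1 and CD44) and limma-voom called 0. Without control replicate 3 edgeR called 2 of the 6, both higher, where 11.2% of the 26350 genes tested passed and 2.98% passed as higher. The treated libraries lay above all 3 controls for 3 of the 6 (ZEB1, YAP1 and CD44), an arrangement found in 7.97% of all genes. YAP1 counts in each of these although it entered the test through its treated libraries alone.

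**Figure D2:**
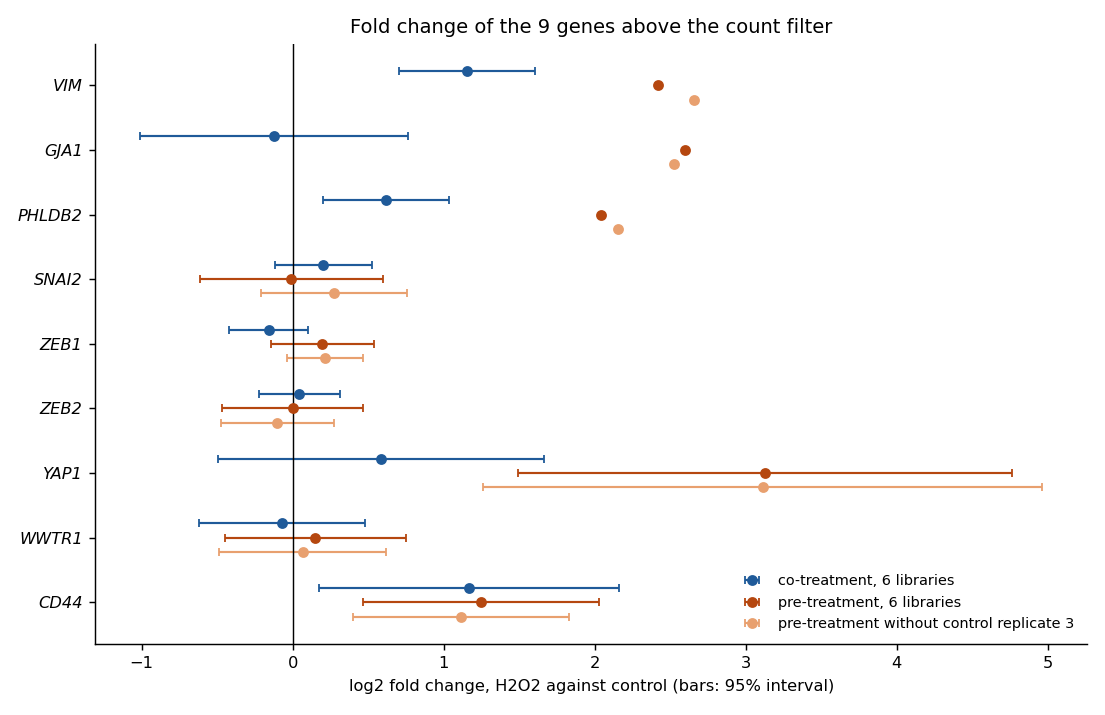
Log2 fold change with H2O2 against control (horizontal axis) for the 9 genes above the count filter, in the co-treatment comparison and in the pre-treatment comparison with and without control replicate 3. Bars are 95% intervals, left out for the pre-treatment values of VIM, GJA1 and PHLDB2, which were chosen on that contrast, and the 3 genes sit between 2.04 and 2.66 there while SNAI2, ZEB1, ZEB2 and WWTR1 lie between -0.16 and 0.27.

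The difference between the responses, pre-treatment minus co-treatment log2FC, was tested for the 6 known genes over all 12 libraries, and 0 passed an FDR of 0.05, where 0.0287% of the 24407 genes tested passed. By DESeq2 and limma-voom 0 passed as well. YAP1 was the 1 of 6 with an unadjusted p under 0.05, against 8.94% of all genes, with a difference of 2.50 (SE 0.84, 95% interval 0.70 to 4.31, edgeR FDR = 0.511). Its value without control replicate 3 was 2.46 (edgeR FDR = 0.105), and 0 of the 6 passed there, where 8.02% of all genes did. For CD44 the difference was 0.05 (95% interval -1.31 to 1.41, edgeR FDR = 0.989) and for ZEB1 0.33 (95% interval -0.03 to 0.69, edgeR FDR = 0.577), or -0.11 and 0.32 without control replicate 3 (edgeR FDR = 0.930 and 0.20). As a description only, the difference was 1.24 for VIM, 2.69 for GJA1 and 1.40 for PHLDB2, or 1.44, 2.58 and 1.48 without that library. The controls of the experiments differed in level: VIM, PHLDB2 and YAP1 were each lower in all 3 pre-treatment controls than in any co-treatment control, and experiment and control level cannot be told apart.

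To compare genes with each other, levels were divided by exon length in kilobases. Over the 12 libraries the median level per kilobase was 16.0 CPM for ZEB1, 6.96 for SNAI2, 2.42 for VIM, 2.28 for ZEB2, 0.823 for PHLDB2, 0.390 for WWTR1, 0.175 for GJA1, 0.156 for CD44, 0.0594 for YAP1 and 0 for PRRX1. VIM ran from 0.592 to 4.41 CPM per kilobase, and ZEB2 from 1.97 to 2.98. Over the 6 libraries with ATRA alone the order of VIM and ZEB2 was the other way, with medians of 1.04 and 2.30 CPM per kilobase. Exons come from an annotation lifted to hg19, not necessarily that of the authors.

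Antisense genes overlap exons of VIM, SNAI2, ZEB1, ZEB2, YAP1, WWTR1 and CD44, and the strand setting of the counting is not given in the sources used here. VIM-AS1 reached at most 0.0426 CPM in any library, ZEB2-AS1 0.426 CPM and WWTR1-AS1 0.320 CPM, whereas ZEB1-AS1 lay between 7.57 and 11.2 CPM. Only these 4 antisense genes were followed, and none over SNAI2, YAP1 or CD44. Of those of the 4 above the count filter, 0 of 1 (co-treatment) and 0 of 2 (pre-treatment) passed the edgeR test. At an unadjusted p under 0.05 were 0 and 1, against 8.15% and 11.2% of all genes.

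Across the 12 libraries VIM followed PHLDB2 most closely among the members. Pearson's r of log2 CPM was 0.917 with PHLDB2, 0.769 with YAP1, 0.742 with CD44 and 0.622 with GJA1, but 0.146 with ZEB1, 0.189 with SNAI2 and -0.056 with ZEB2. These are descriptions over libraries that share treatment and experiment. VIM, GJA1 and PHLDB2 were all picked as high in the pre-treated libraries, so r among them is partly set by that choice. VIM, GJA1 and PHLDB2 had r of 0.451, 0.479 and 0.505 with the share of small structured RNAs, which was itself higher in the pre-treated libraries than in control replicates 1 and 2. With the reads outside annotated features per counted read, r was -0.43 for VIM, -0.00088 for GJA1, -0.49 for PHLDB2 and 0.759 for ZEB2. The part of these measures in the levels was not tested.

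The genes most like VIM over the 12 libraries, among 13779 compared, were MATN2 (r = 0.951), ACTA2 (0.949), SFRP1 (0.935), TPM1 (0.927) and NRP1 (0.926). MATN2 is an extracellular matrix protein, ACTA2 smooth muscle actin, SFRP1 a secreted Wnt modulator, TPM1 a tropomyosin and NRP1 a semaphorin and VEGF co-receptor. PHLDB2 was most like CPA4 (0.964), PRSS23 (0.956), CCL2 (0.951), TPM1 (0.947) and MATN2 (0.941). TPM1 and MATN2 thus stood in both lists. VIM and PHLDB2 were picked for the same difference, so shared genes are partly a result of that choice. GJA1 was most like LINC00202-2 (0.932), MAGI2-AS3 (0.928), MAPK15 (0.919), PLEKHA1 (0.909) and SNORD64 (0.901), none of which stood in the lists of VIM or PHLDB2.

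**Figure D3:**
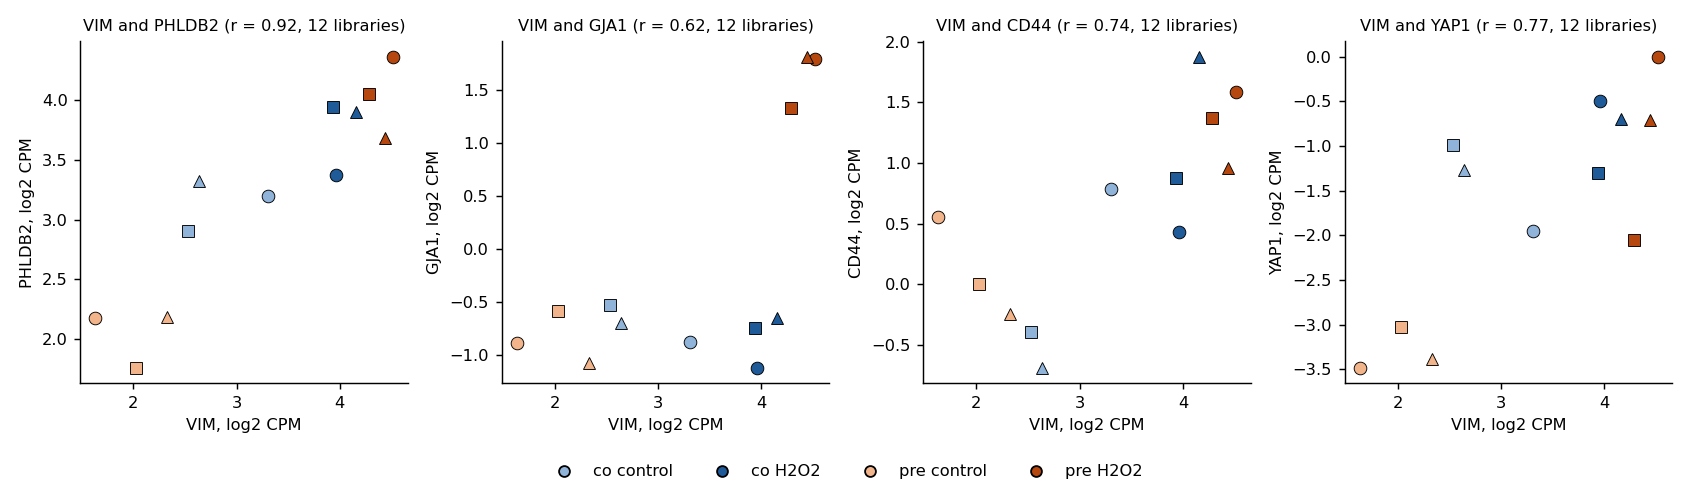
Levels of PHLDB2, GJA1, CD44 and YAP1 (vertical axes, log2 CPM) against VIM (horizontal axis, log2 CPM) in the 12 libraries, with colours for groups and shapes for replicates. PHLDB2 climbs with VIM through all 4 groups (r = 0.917), whereas GJA1 is level in 3 groups and high in the pre-treated one. VIM, PHLDB2 and GJA1 were picked as high in the pre-treated libraries, which enter r.

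Genes known as effectors of the mesenchymal state changed in both directions with co-treatment. Of 24 tested, 2 rose, among them ANXA2, a membrane-binding annexin (log2FC 0.81, SE 0.15, edgeR FDR = 0.0297), where 0.335% of all genes passed as higher. Another 2 fell, the platelet-derived growth factor receptor PDGFRA (log2FC -1.15, SE 0.15, edgeR FDR = 0.00504) and the mesenchymal cadherin CDH11 (-0.69, SE 0.14, FDR = 0.0465), where 0.263% of all genes passed as lower. ANXA2 was at 28.0 to 38.2 CPM in the controls and 51.5 to 62.7 CPM in the co-treated libraries, and PDGFRA at 337 to 379 and 127 to 182 CPM. The list's median log2FC was -0.01, beside -0.00096 over all genes tested.

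With pre-treatment 0 of the 24 effectors passed over 6 libraries by edgeR, with 9 at an unadjusted p under 0.05, against 11.2% of all genes. The list median was 0.32 beside -0.0066 over all genes, or 0.43 beside 0.011 without control replicate 3. The treated libraries lay above all controls for 8 of the 24, against 7.97% of all genes, and below all controls for 3 (PDGFRA, PDGFRB and MMP2), against 8.47%. Leaving out control replicate 3, 6 rose and 2 fell, against 2.98% and 8.23% of all genes. ANXA2 then had a log2FC of 2.46, TPM1 of 1.76 and TPM2 of 1.73 (edgeR FDR = 0.000903, 0.000903 and 0.00236), and MMP2, a matrix metalloproteinase, of -1.02 (edgeR FDR = 0.00159). ANXA2 was at 12.7 to 30.6 CPM in the 3 controls and 57.1 to 91.0 CPM after pre-treatment, and TPM1 at 16.5 to 31.0 and 58.2 to 66.0 CPM. MMP2 in control replicate 3 (228 CPM) was near the treated libraries (197 to 215 CPM), unlike the other controls.

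The further mesenchymal transcription factors gave 0 of 15 calls in either experiment over 6 libraries. At an unadjusted p under 0.05 (edgeR) were 4 and 5, against 8.15% and 11.2% of all genes. The list medians were -0.05 and -0.09, the latter 0.06 without control replicate 3. In the fit without control replicate 3, 1 of 16 rose with pre-treatment and 2 fell, against 2.98% and 8.23% of all genes. TBX18 (log2FC 3.90, edgeR FDR = 0.00623), a T-box factor, went from 0.0181 to 0.0876 CPM to 0.526 to 1.00 CPM. All its controls lay under the count filter, so it was tested only because of its treated libraries. AEBP1 (-1.22, edgeR FDR = 0.00107) and NOTCH2 (-1.03, FDR = 0.0231) fell in that fit, and over 6 libraries they were at -0.96 and -0.85 (edgeR FDR = 0.320 and 0.377). Control replicate 3 was near the treated libraries for both, at 38.1 CPM against 31.5 to 37.4 for AEBP1 and 398 against 203 to 387 for NOTCH2. Of 13 adrenergic factors, 2 fell with co-treatment, among them TFAP2B (-0.90, edgeR FDR = 0.0380), against 0.263% of all genes, and 10 of 13 had a log2FC under 0, with a median of -0.38, where 49.9% of all genes had one above 0. With pre-treatment 0 of 13 passed over 6 libraries, with 4 at an unadjusted p under 0.05 (edgeR), against 11.2% of all genes. Without control replicate 3, 3 of 13 fell, against 8.23% of all genes. These were KLF7, GATA3 and TFAP2B (-1.03, -1.44 and -1.15, edgeR FDR = 0.00107, 0.0126 and 0.0340). Over 6 libraries they were at -0.76, -1.07 and -0.84 (edgeR FDR = 0.387, 0.471 and 0.523), and the list median was -0.39, or -0.26 without control replicate 3. In that control KLF7 was 103 CPM, below the treated libraries (107 to 119), and GATA3 (29.6 CPM) and TFAP2B (118 CPM) lay within the treated ranges of 24.7 to 59.5 and 91.2 to 212 CPM.

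Target genes of YAP and TAZ gave 0 of 20 calls with co-treatment and 0 of 19 with pre-treatment over 6 libraries. At an unadjusted p under 0.05 (edgeR) were 6 and 8, against 8.15% and 11.2% of all genes. Their median log2FC was 0.27 and 0.42, or 0.48 with pre-treatment without control replicate 3. The pre-treated libraries lay above all 3 controls for 6 of the 19, against 7.97% of all genes. Without control replicate 3, 5 of 20 rose and 1 fell, against 2.98% and 8.23% of all genes. The 5 include CTGF, which entered the test only through its treated libraries. TGFB2, a transforming growth factor ligand, rose by 2.31 (edgeR FDR = 0.00159), ANKRD1, a cardiac ankyrin repeat protein used as a reporter of YAP activity, by 4.62 (FDR = 0.00197), and CCDC80, a matrix protein, by 2.19 (FDR = 0.00456) on the log2 scale.

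ANKRD1 was at 0.110 to 1.34 CPM in the 3 pre-treatment controls and 6.77 to 12.4 CPM after H2O2, and at 3.69 to 4.35 and 5.22 to 6.55 CPM in the co-treatment controls and treated libraries. TGFB2 was at 0.868 to 1.62 CPM in the pre-treatment controls and 5.48 to 6.55 CPM after H2O2, and over all 6 libraries its log2FC was 2.44 (edgeR FDR = 0.0778). CTGF, the classic YAP target, had 1, 0 and 0 counts in the pre-treatment controls and 33, 24 and 9 after H2O2. The ratio of its summed counts was 44.9 (95% exact interval 7.79 to 1801, counting error only), or 27.2 without control replicate 3. CTGF did not pass the count filter over 6 libraries, and without control replicate 3 it did so through its treated libraries alone and then passed the test (edgeR FDR = 0.0217).

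The Hippo pathway list held kinases and their partners, but also the TEAD factors, VGLL4 and AMOTL2, which is in the target list too. Because the list mixes these, its direction does not measure kinase activity. It gave 0 of 16 calls in either experiment over 6 libraries. At an unadjusted p under 0.05 (edgeR) were 3 and 4, against 8.15% and 11.2% of all genes. With co-treatment 15 of the 16 had a log2FC under 0 (median -0.19), and with pre-treatment 12 of the 16 (median -0.16, or -0.12 without control replicate 3), where 49.4% of all genes were above 0. When control replicate 3 was left out, 1 of 16 fell, against 8.23% of all genes. The kinase LATS1, which phosphorylates YAP and TAZ, then fell by 1.04 on the log2 scale (edgeR FDR = 0.00106, against 0.404 over 6 libraries). But its level in control replicate 3, 45.2 CPM, was below the treated libraries (46.8 to 53.3 CPM), and the other controls were near 109 CPM.

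Relatives of the 3 chosen genes were read as lists too. Other gap junction genes gave 0 of 8 and 0 of 9 calls over 6 libraries. At an unadjusted p under 0.05 (edgeR) were 1 and 2, against 8.15% and 11.2% of all genes. Their medians were -0.18 and -0.22, the latter -0.37 without control replicate 3. In that fit 1 of 9 fell, GJA4, by 2.13 on the log2 scale (edgeR FDR = 0.0291) from no more than 0.744 CPM, against 8.23% of all genes. GJA4 was tested only through its controls, as its treated libraries were at 0.0725, 0.206 and 0.113 CPM. Partners of PHLDB2 at the cell cortex gave 0 of 9 calls in both (1 and 2 at an unadjusted p under 0.05, edgeR, against the same shares). Their medians were -0.15 and -0.13, the latter -0.12 without control replicate 3. In the fit without control replicate 3, 2 of 9 fell, against 8.23% of all genes. Talin 1 (TLN1) fell by 1.25 and ERC1 by 1.00 on the log2 scale (edgeR FDR = 0.000985 and 0.00103), against -1.03 and -0.74 over 6 libraries (edgeR FDR = 0.320 and 0.391). In that control TLN1 was 277 CPM, near the treated libraries (212 to 219), and ERC1 was 86.2 CPM, below them (90.9 to 94.3). Among 7 filament and linker partners of vimentin, 1 rose with co-treatment, where 0.335% of all genes passed as higher. This was SYNM, the filament protein synemin (log2FC 0.82, SE 0.15, edgeR FDR = 0.0325), from 17.6 to 23.7 CPM to 32.6 to 39.1 CPM. With pre-treatment 0 of the 7 passed over 6 libraries (2 at an unadjusted p under 0.05, edgeR, against 11.2% of all genes). Without control replicate 3, 1 of 7 fell, against 8.23% of all genes. This was plectin (PLEC), which crosslinks vimentin filaments, by 1.72 on the log2 scale (edgeR FDR = 0.00103). Over 6 libraries PLEC was at -1.39 (edgeR FDR = 0.320), and its level in control replicate 3, 107 CPM, lay within the treated range of 81.9 to 112 CPM. The median of these partners was 0.02 with co-treatment and -0.38 with pre-treatment, or -0.23 without control replicate 3.

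Of the epithelial genes, which ZEB and SNAI proteins repress, 0 of 8 passed with co-treatment and 0 of 9 with pre-treatment over 6 libraries. At an unadjusted p under 0.05 (edgeR) were 1 and 2, against 8.15% and 11.2% of all genes. Their medians were 0.30 and 0.46, the latter 0.68 without control replicate 3. KRT8 was tested with pre-treatment only through its treated libraries. Without control replicate 3, 1 of 9 rose, against 2.98% of all genes. This was KRT18, a keratin filament protein (log2FC 3.76, edgeR FDR = 0.00159), from 0.394 to 1.65 CPM in the 3 controls to 4.32 to 9.73 CPM. Among fibroblast markers, COL3A1, a fibrillar collagen, was the single gene of these lists that passed over all 6 pre-treatment libraries (log2FC 2.44, SE 0.24, edgeR FDR = 0.0443, or 2.48 at FDR = 0.000985 without control replicate 3), from 13.3 to 22.2 CPM to 85.2 to 111 CPM. With any library other than control replicate 3 left out, 0 genes passed in the pre-treatment comparison, COL3A1 among those lost. DCN (decorin) also rose without control replicate 3 (2.95, edgeR FDR = 0.0131), so 2 of 8 fibroblast markers passed as higher, against 2.98% of all genes. Over 6 pre-treatment libraries 4 of 7 had an unadjusted p under 0.05 (edgeR), against 11.2% of all genes. The list median was 0.52, or 1.58 without control replicate 3, where COL1A2 was tested only through its treated libraries. With co-treatment 0 of 7 passed (1 at an unadjusted p under 0.05, against 8.15%), with a median of 0.02. Neuroblast markers gave 0 of 8 calls in both experiments over 6 libraries (4 and 2 at an unadjusted p under 0.05, edgeR, against 8.15% and 11.2% of all genes). All 8 had a log2FC under 0 with co-treatment, with a median of -0.45. When control replicate 3 was left out, 2 of 8, DBH (-1.72) and GATA3, fell with pre-treatment (edgeR FDR = 0.0259 and 0.0126), against 8.23% of all genes. DBH in that control was 354 CPM against 123 to 315 CPM after H2O2. Schwann cell markers gave 0 of 6 calls in either experiment (0 at an unadjusted p under 0.05), endothelial markers 0 of 2 and 0 of 4 and immune markers 0 of 1 and 0 of 2 by edgeR. Without control replicate 3, 1 of 2 immune markers fell, CD14 (-1.15, edgeR FDR = 0.0300), against 8.23% of all genes. In that control CD14 was 0.518 CPM, within the treated range of 0.513 to 0.663 CPM.

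**Figure D4:**
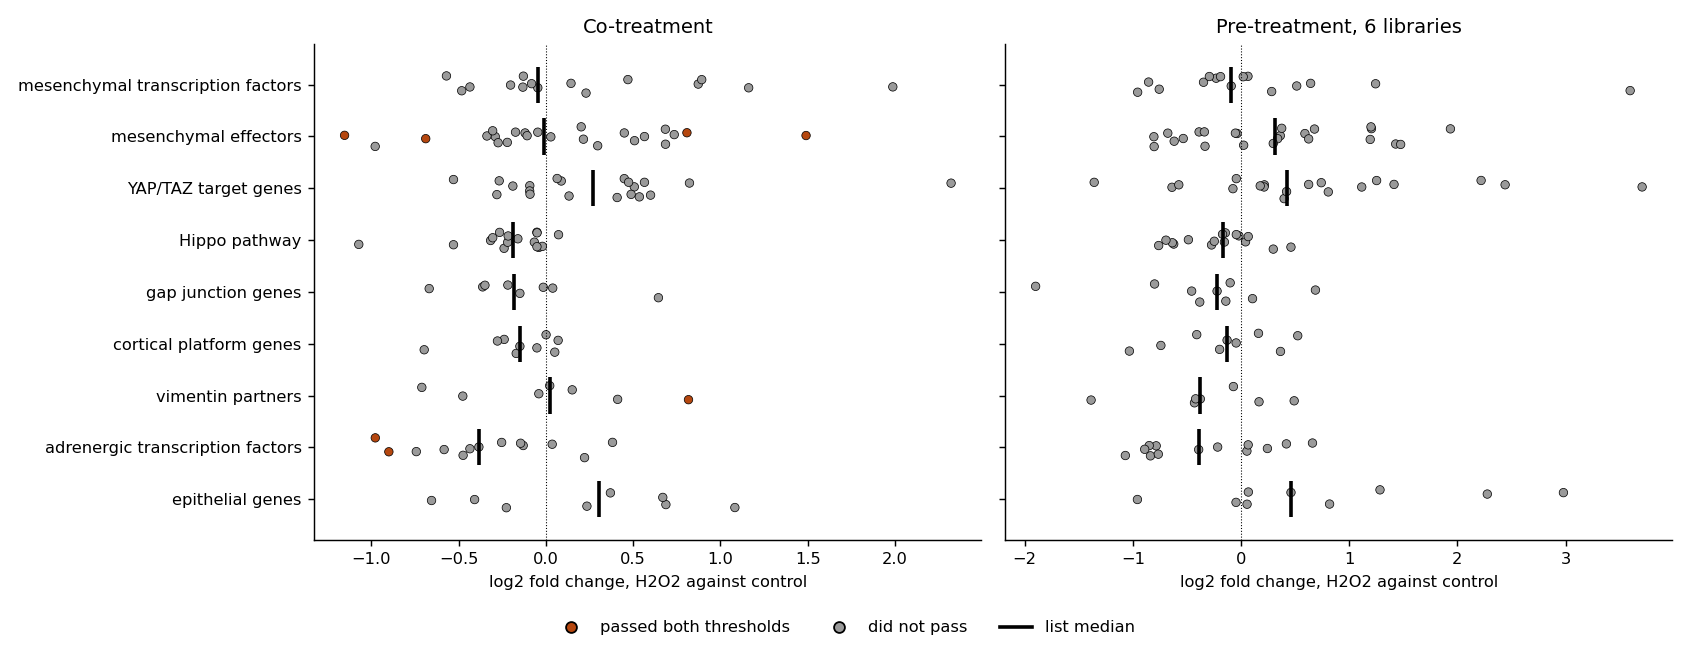
Log2 fold change with H2O2 against control (horizontal axis) of each tested gene of 9 lists in the co-treatment comparison (left) and the pre-treatment comparison over 6 libraries (right). Points are genes, orange where both thresholds were passed, and black bars are list medians, with the YAP/TAZ target list at 0.27 and 0.42 and the adrenergic factors at -0.38 and -0.39.

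**Figure D5:**
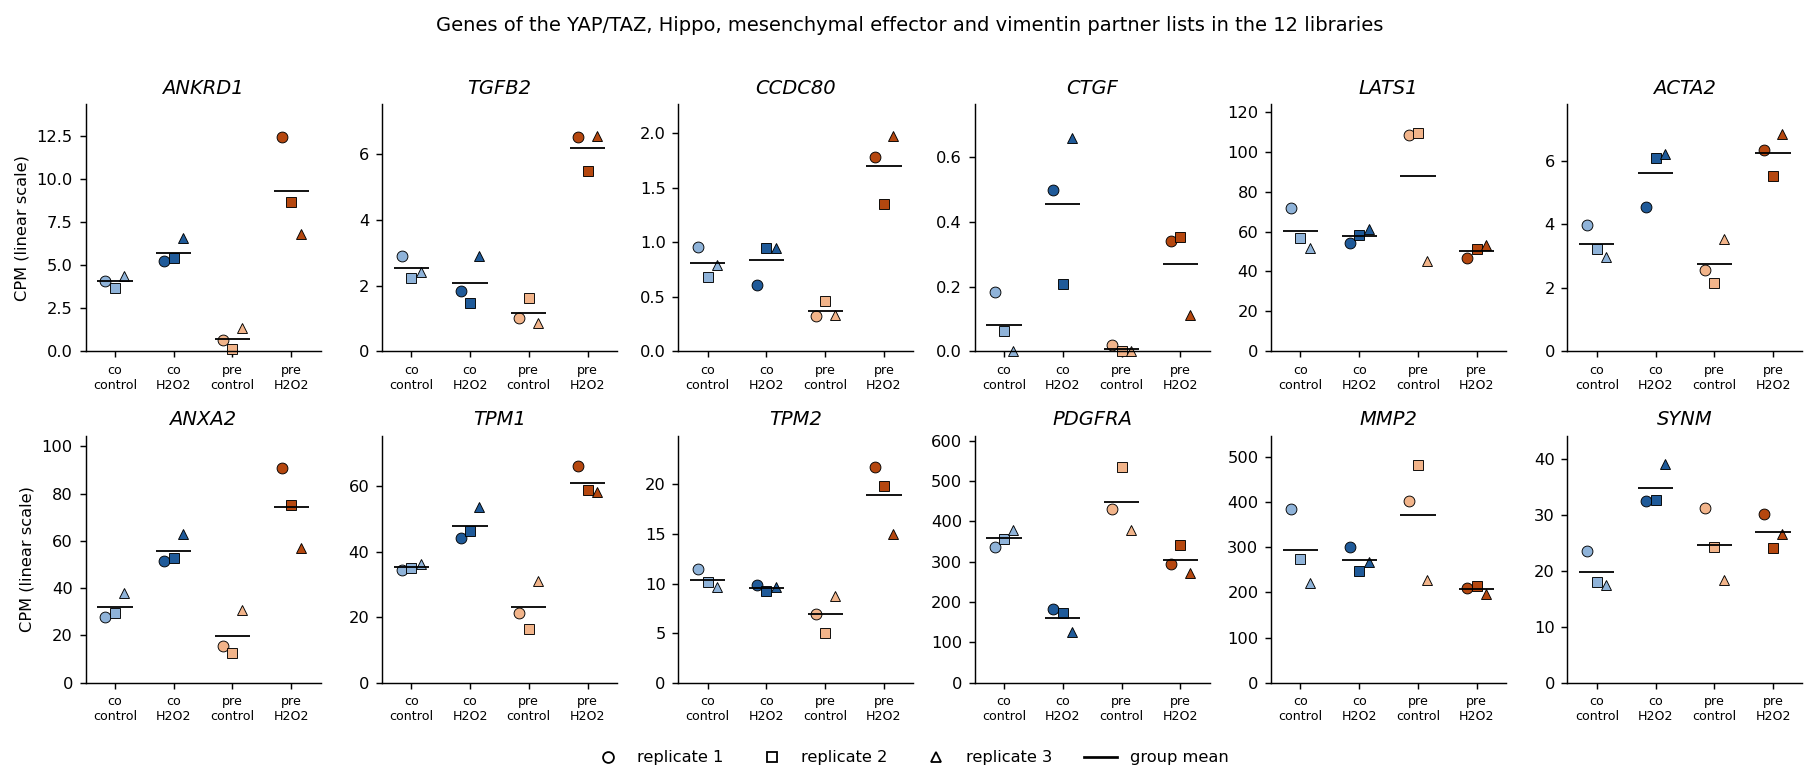
Levels in CPM (vertical axis, linear, from 0) of 12 genes of these lists in each library, with shapes for replicates and bars for group means. ANKRD1, TGFB2, ANXA2, TPM1 and TPM2 lie above all 3 controls after pre-treatment, whereas for LATS1 and MMP2 control replicate 3 (triangle) sits at 45.2 and 228 CPM near the treated libraries.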

How the data were processed

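RNA of 12 libraries, 3 in each of 4 groups taken from the sample labels, was studied. According to the study's methods and processing notes, ribosomal RNA was depleted, stranded total RNA libraries were made, reads were checked with FastQC 0.11.8, trimmed by Cutadapt 2.10, aligned by HISAT2 2.1.0 (build hg19) and assigned to gene symbols by HTSeq 0.7.2. The authors deposited these counts without normalization or filter. The 5 closing entries for uncounted reads were left out of library sizes, of which reads on no feature made up 10.4% to 36.7% of all and reads mapped to several places 13.6% to 31.2%. The strand setting and annotation version are not given in the sources used here. The authors' tables of log2 fold changes, average log2 CPM, p-values and FDR were not used.

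The tests used edgeR 4.0.16 under R 4.3.3 (TMM factors, quasi-likelihood test, Benjamini-Hochberg FDR over all genes tested), each experiment apart. A gene was tested if at least 3 libraries (2 without control replicate 3) reached a CPM equal to 5 counts in the smallest one, which was 0.181 (co-treatment) or 0.120 (pre-treatment). Calls needed an FDR under 0.05 and, on the log2FC scale, a size above 0.6 with co-treatment and above 1 with pre-treatment, or an FDR under 0.05 for the difference between responses. Log2 CPM used a prior count of 2. The members, lists and tests were chosen with earlier results of these data known. Each list names at most 4 called genes of lowest FDR, and likeness was Pearson's r of log2 CPM among genes with a mean above 1. Gene positions come from GENCODE models lifted to hg19 and promoter windows from RefSeq on GRCh38.p14. The scripts were tested on simulated counts. Replicates of a group differed beyond counting noise (chi-square per degree of freedom 24.8 to 545). Alternatives were edgeR's exact test, DESeq2 1.42.0, limma-voom (limma 3.58.1), RLE or upper-quartile factors, library size only, scaling without small structured RNAs, no filter, filterByExpr, robust dispersion, no fold threshold, a replicate block, a fit over 12 libraries and each library left out. Some genes that passed a test are not reported here.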

Additional observations from a re-analysis of the deposited data

How the results depend on the processing

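With co-treatment, 1 member passed in 10 of 13 alternative settings. The count was 0 with library size only (VIM FDR = 0.0624 by edgeR) and with all 12 libraries in 1 fit (VIM FDR = 0.163), and 2 without a filter, where CD44 also passed. Leaving out 1 library gave 0 to 1, and it was 0 without control replicate 2 or 3 or any treated replicate. Over all genes the co-treatment count of 132 was 307 by edgeR's exact test and by DESeq2, 80 with library size only (57 of them higher, against 74 of 132), 443 without a filter, 3 in the fit over 12 libraries and 18 (without treated replicate 3) to 218 (without control replicate 1) with 1 library left out. With pre-treatment, 0 known members passed in 11 of 13 settings, 1 by edgeR's exact test, 2 by DESeq2, and 0 to 2 with 1 library left out, the 2 being without control replicate 3. The count over all genes moved from 6 to 231 by the exact test, 501 by DESeq2, 0 by limma-voom and with upper-quartile factors, 1 with library size only, 300 without a filter, 61 in the fit over 12 libraries, and 0 to 2952 with 1 library left out, the 2952 being without control replicate 3 and 0 without any other. For the difference between responses 0 known members passed in every setting and with each library left out, while 7 genes became 108 by DESeq2, 2 by limma-voom, 4 with library size only, 272 without a filter and 0 to 2058 with 1 library left out, the 2058 being without pre-treatment control replicate 3. The causes were not tested. Single genes of the further lists were not refitted under these alternatives other than without pre-treatment control replicate 3.

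Directions that turned belonged to values near 0. The pre-treatment log2FC of ZEB2 was -0.025 by DESeq2 and with RLE factors, -0.00080 by limma-voom, -0.030 with upper-quartile factors, -0.089 with library size only, -0.0030 without a filter, -0.00079 with filterByExpr and -0.032 in the fit over 12 libraries. For SNAI2 it was 0.016 by limma-voom. The difference between responses of CD44 was -0.051 with library size only. With 1 library left out, the co-treatment log2FC ranged from -0.24 to 0.20 for WWTR1 and -0.0061 to 0.12 for ZEB2, the pre-treatment log2FC from -0.23 to 0.27 for SNAI2 and -0.18 to 0.12 for ZEB2, and the difference from -0.52 to 0.63 for CD44, -0.031 to 0.37 for WWTR1, -0.24 to 0.079 for ZEB2 and -0.42 to 0.013 for SNAI2. The pre-treatment log2FC of YAP1 and CD44 stayed above 1 in every setting and with each library left out. For YAP1 this is a description only, as it passed the count filter through its treated libraries alone.

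The replicate numbers do not pair the libraries by any label. Same-numbered libraries had correlations between their deviations from group means of -0.079 to -0.043 (co-treatment) and -0.27 to 0.026 (pre-treatment). With the replicate block 1 member passed with co-treatment and 0 with pre-treatment or for the difference. The block gave 180 genes with co-treatment and 0 in the other comparisons, and turned the pre-treatment log2FC of ZEB2 to -0.0059 and of SNAI2 to 0.031. Depth limits PRRX1, YAP1 and CTGF, which had 0 to 4 counts in the pre-treatment controls.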
